A study of Mus musculus with 12 samples.

Results

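The data described here are the microarray levels of 10 genes of the mouse circadian clock, Per1, Per2, Per3, Dbp, Tef, Nr1d1, Nr1d2, Arntl, Clock and Bhlhe41, in 2 brain regions of adult mice with and without the homeobox gene En2. The members were taken by gene name as all non-control probes annotated to these symbols, which gave 20 of 41174 probes and 10 of 21149 named genes. En2 is a transcription factor of midbrain and hindbrain development. The En2KO group holds En2-/- mice, in which the homeobox part of En2 is deleted in every cell, and the En2WT group holds their wild-type littermates from heterozygous matings. Both genotypes shared a background of 129Sv, C57BL/6 and outbred origin that had been crossed at least 5 times to C57BL/6, were 3 to 5 months old, included both sexes and lived under 12 h of light and 12 h of dark. RNA of the whole cerebellum or of the hippocampus was hybridised to 1 single-colour Agilent array per sample, with 3 arrays in each of the groups Cerebellum En2WT, Cerebellum En2KO, Hippocampus En2WT and Hippocampus En2KO. The hour of dissection and the sex behind each array are not given in the sources used here, nor is it stated whether cerebellum and hippocampus of the same number came from the same mouse. Levels are log2 signals after quantile normalization over the 12 arrays, so a difference of 1 is a 2-fold difference.

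The clock of mammalian cells is a transcription loop with a period of about a day. Arntl (also called Bmal1) and Clock form a dimer that binds E-box motifs and drives the Per and Cry genes, whose proteins then inhibit the dimer. Nr1d1 and Nr1d2 encode the REV-ERB repressors, which compete with the ROR activators at RORE motifs and lower Arntl transcription, and Bhlhe41 (DEC2) is an E-box repressor. Dbp and Tef encode PAR bZIP activators that carry the rhythm to output genes through D-box motifs, where Nfil3 is the opposing repressor. In mouse brain, Per, Nr1d1 and Dbp transcripts rise and fall over the day nearly opposite to Arntl, so that the level on a single array depends on when the tissue was taken, and glucocorticoids can induce Per1 directly.

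The motifs through which members act on each other were looked for in RefSeq promoters (GRCm38.p6, from 250 bases before to 50 bases after a start site). A promoter was listed for 9 of the 10 members and none for Per2. The letters CACGTG (E-box, the same on both strands), TTATGNAA (D-box, or TTNCATAA on the other strand) and TAGGTCA (RORE core, or TGACCTA) were searched on both strands. CACGTG was present in 3 of the 9 members with a promoter against 7.15% of all 32851 promoters, TTATGNAA in 2 against 3.38%, and TAGGTCA in 1 against 2.61%. Members were counted as genes with a match in any of their promoters, whereas the percentages count single promoters. A gene with several start sites has more chances of a match, so the counts and percentages differ in unit. The windows of members that hold a match are given because they mark which parts of the loop could be read from the promoter letters. The motif is in capitals.
Per1 E-box, 166 bases before the start, plus strand, chr11:69098771-69098800: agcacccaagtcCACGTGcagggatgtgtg
Per1 D-box, 24 bases before the start, plus strand, chr11:69098914-69098943: agggcctggcaTTATGCAAcccgcctccca
Per3 D-box, 205 bases before the start, minus strand, chr4:151044852-151044881: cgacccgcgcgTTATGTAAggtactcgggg
Per3 D-box, 158 bases before the start, minus strand, chr4:151044805-151044834: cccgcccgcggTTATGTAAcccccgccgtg
Tef E-box, 138 bases before a start, plus strand, chr15:81811264-81811293: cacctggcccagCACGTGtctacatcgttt
Tef E-box, 127 bases before another start, plus strand, chr15:81802534-81802563: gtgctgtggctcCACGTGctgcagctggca
Bhlhe41 E-box, 153 bases before the start, minus strand, chr6:145865556-145865585: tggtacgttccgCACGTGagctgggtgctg
Arntl RORE core, 30 bases after the start, plus strand, chr7:113207530-113207558: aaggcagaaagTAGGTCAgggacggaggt
Per1 was the only member whose window held both an E-box and a D-box. Dbp, Nr1d1, Nr1d2 and Clock had a promoter but no match. A match is a description of the letters and not a site shown to be bound.

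Of the 20 member probes, 19 were well above background on all 12 arrays. The remaining one, a Bhlhe41 probe, was well above background on 3 of the 6 cerebellum arrays and on none of the hippocampus arrays and is not used further. Per2, Bhlhe41, Nr1d1, Tef and Clock had 2, 2, 3, 4 and 4 probes, and the brightest probe stands for its gene. All 10 members entered the test in both regions. On the arrays as a whole, 62.27% to 73.05% of the 43379 non-control spots were well above background and no spot was saturated. The median signal over local background ran from 5.719 (Cerebellum En2WT 3) to 10.35 (Cerebellum En2WT 2), and array number limits the precision. The tissue labels were borne out by markers fixed in a list, since 5 of 5 tested cerebellum genes were higher and 6 of 6 tested hippocampus genes lower in cerebellum than in hippocampus in both genotypes. The En2 probe lies outside the deleted part and therefore checks no genotype label; its level was 14.15 ± 0.41 (SD, n = 3) in Cerebellum En2WT and 14.46 ± 0.37 (n = 3) in Cerebellum En2KO.

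**Figure D1:**
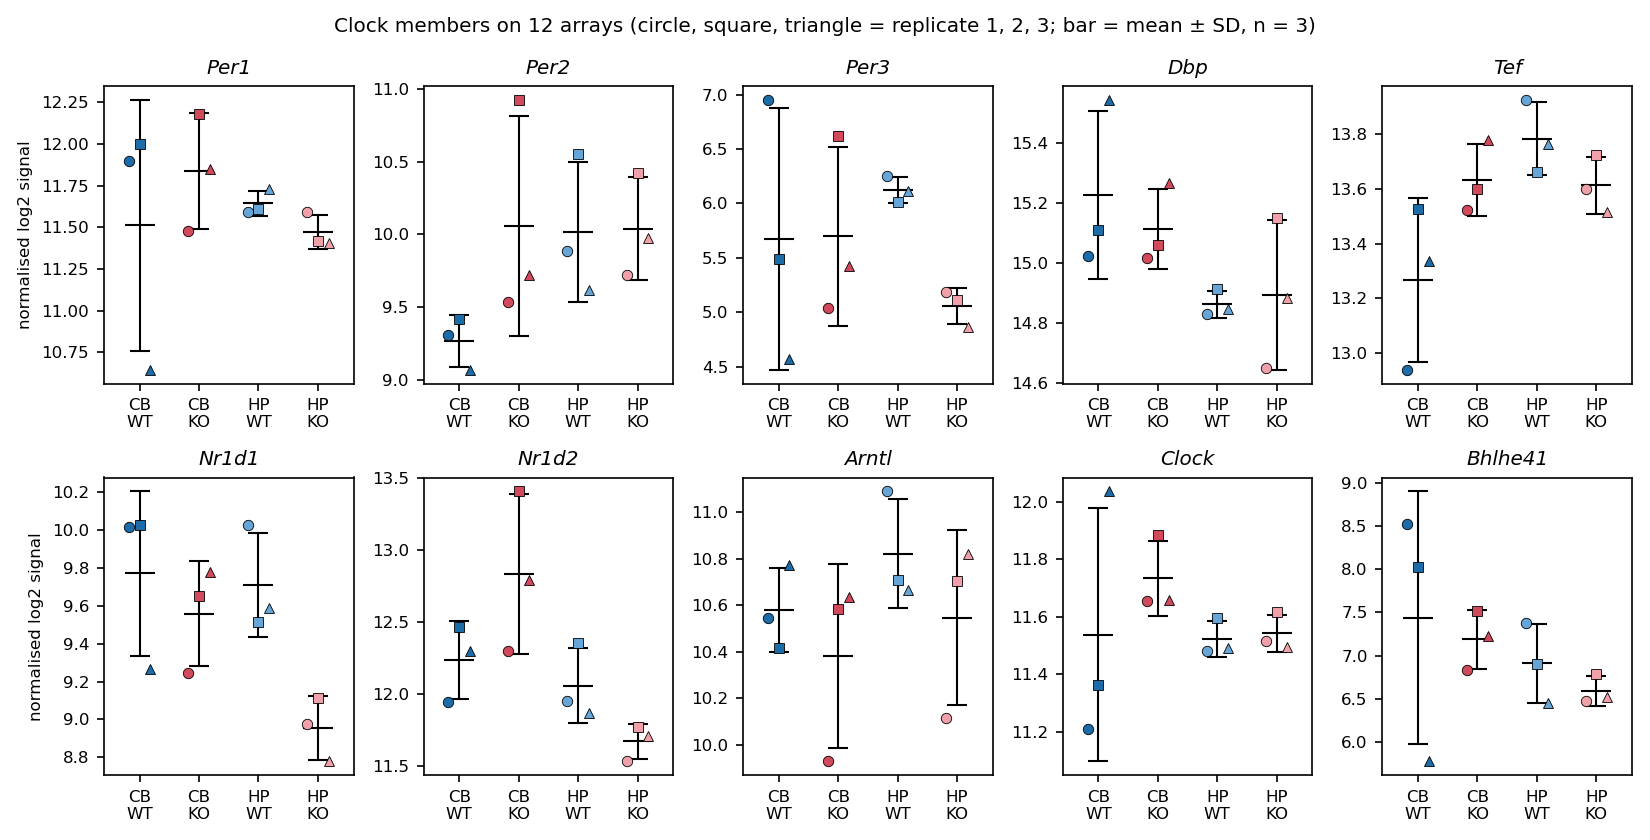
Normalised log2 signal (vertical axis, own scale in each panel) of the probe standing for each of the 10 members on the 12 arrays, by group (CB cerebellum, HP hippocampus, WT En2WT, KO En2KO); circle, square and triangle are replicates 1, 2 and 3 and the bars give the mean ± SD. In the hippocampus the 3 En2KO arrays lie below the 3 En2WT arrays for Per3, Nr1d1, Nr1d2 and Per1, and in the cerebellum the triangle of En2WT stands apart for Per1 and Bhlhe41 and is the lowest array for Per3.

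In the hippocampus, Per3, a Period gene, was lower in En2-/- mice, and it was the single member of 10 to pass the test. The rest of the members gave no difference past the threshold, although Nr1d1, Nr1d2 and Per1 were lower on all 3 En2KO arrays than on all 3 En2WT arrays. Over all 14971 genes tested by limma with Benjamini-Hochberg adjustment at 0.05, 1.34% were called, and 0.628% as lower, beside 1 of 10 members. The rank product, the method of the study with its own limit for this region, also called Per3 and no other member, against 4.17% of all genes, and 2.36% as lower.

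Per3 had levels of 6.25, 6.01 and 6.11 on the Hippocampus En2WT arrays and of 5.18, 5.12 and 4.87 on the Hippocampus En2KO arrays. The groups did not overlap and each was tight. The log2 difference was -1.07 ± 0.17 (SE), a 2.10-fold lower level, with a limma adjusted p of 0.0338. The rank product P of 0.0018 is not corrected for the number of genes. Its percentage of false prediction, given as a share, was 0.135. Within the 3 slides, each of which carried 1 array of every group, the En2KO minus En2WT difference was -1.07, -0.89 and -1.24. Per3 was lower in 3 of 3 slides, which any pairing of groups that do not overlap must give.

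The size and the call of the Per3 difference depended on the processing. With the slide as a block the limma adjusted p was 0.0966, and with each of the 6 arrays left out in turn it lay between 0.0645 and 0.161, with differences from -1.13 to -0.97. Per3 is a dim probe, at the 4.27th percentile of level among genes, and the difference was -0.47 with a normexp background correction (adjusted p = 0.136) and -0.47 in the log2 values of the authors (adjusted p = 0.137). The rank product P was 0.051 with that correction and 0.0557 in the authors' values, so Per3 was not called in either. The direction was the same in each of these settings.

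Nr1d1, encoding REV-ERB alpha, came next in size. Its levels were 10.03, 9.52 and 9.59 in Hippocampus En2WT and 8.97, 9.12 and 8.78 in Hippocampus En2KO. The arrays did not overlap, and the log2 difference of -0.75 ± 0.20 (SE) had an unadjusted limma p of 0.0052 and an adjusted p of 0.118. The other 2 Nr1d1 probes, which lie farther towards the 5' end of the gene, gave -0.11 and 0.03, so the difference was seen by the probe at the 3' end only. Its paralog Nr1d2, encoding REV-ERB beta, had levels of 11.95, 12.35 and 11.87 in Hippocampus En2WT and 11.53, 11.77 and 11.71 in Hippocampus En2KO. Here too the arrays did not overlap, with a difference of -0.39 ± 0.19 and an adjusted p of 0.301.

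Among the other Period genes, Per1 lay between 11.594 and 11.73 in Hippocampus En2WT and between 11.41 and 11.592 in Hippocampus En2KO. The groups only just did not overlap, and the difference of -0.17 ± 0.15 was small. Per2 did not differ beyond the spread, with 9.88, 10.55 and 9.62 against 9.72, 10.42 and 9.98 and a difference of 0.02 ± 0.29. In both genotypes the array of replicate 2 was the highest for Per2. Taking Per1, Per3, Nr1d1 and Nr1d2, 4 of 10 members had all En2KO arrays below all En2WT arrays in the hippocampus, against 11.3% of all genes in that direction, and no member had them above, against 15.1%.

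Among the activators of the loop and the outputs, no difference passed the test in the hippocampus. Arntl had a difference of -0.28 ± 0.23 (adjusted p = 0.541), in which the array Hippocampus En2KO 1, at 10.12, was the lowest of the region, while Hippocampus En2KO 2 and 3 at 10.71 and 10.82 fell among the En2WT values of 10.67 to 11.09. Clock was nearly level, between 11.48 and 11.62 on all 6 arrays. Bhlhe41 differed by -0.32 ± 0.25. Dbp, the brightest output probe, was at 14.86 ± 0.04 (SD, n = 3) in En2WT and 14.89 ± 0.25 (n = 3) in En2KO. Tef had levels of 13.78 ± 0.13 and 13.61 ± 0.10 there, and its 3 dimmer probes gave -0.75, -0.35 and -0.71 with adjusted p of 0.127, 0.343 and 0.272 when each probe was tested on its own. The median difference of the 10 members in the hippocampus was -0.22, beside 0.05 for all genes tested.

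Listed markers of other cells and regions also differed in their means between the genotypes in the hippocampus arrays. All 5 listed thalamus genes had higher means in En2KO, with differences from 0.72 to 1.39, and the mean deviation of the list from the region mean ran from -1.06 to -0.02 on the En2WT arrays and from 0.22 to 0.61 on the En2KO arrays. Of the 5 microglia genes, 4 had lower means in En2KO, and their mean deviation ran from 0.16 to 0.43 on En2WT and from -0.30 to -0.22 on En2KO arrays. The 7 tested choroid plexus genes all had lower means in En2KO, but their mean deviation ranged from -2.59 (Hippocampus En2KO 2) to 1.65 (Hippocampus En2KO 1) within that group. Of the 8 hippocampus genes, 6 had lower means in En2KO with a median of -0.26, and their mean deviation ran from -0.03 to 0.25 on En2WT and from -0.35 to -0.05 on En2KO arrays. Of the 5 cerebellum genes tested in the hippocampus, 3 had higher means in En2KO, with Zic1 at 1.24 and Cbln1 at 1.10. All 5 oligodendrocyte genes had lower means in En2KO, with a median of -0.14. Of the 5 astrocyte genes, 3 had lower and 2 higher means, with a median of -0.26. None of these genes passed the test, and their part in the Per3 difference was not tested. In bulk tissue, fewer cells that express a gene and less RNA of it per cell cannot be told apart.

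In the cerebellum no member passed the limma test (0 of 10, against 0.660% of 15603 genes) and none was called by the rank product (0 of 10, against 5.01%). No member had an unadjusted limma p under 0.05 either, where 9.30% of all genes did. Per2 had the largest difference, followed by Nr1d2, and both were higher in En2-/- mice on average.

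Per2 had levels of 9.31, 9.42 and 9.07 on the Cerebellum En2WT arrays and of 9.53, 10.93 and 9.72 on the Cerebellum En2KO arrays. It was the only member whose cerebellum groups did not overlap, in a direction where 6.02% of all genes did not overlap. The log2 difference was 0.79 ± 0.36 (SE), with a limma adjusted p of 0.557 and a rank product P of 0.0123. The array Cerebellum En2KO 2 carried much of it, since the difference was 0.36 without that array. The rank product called Per2 higher with the normexp background correction, in the authors' values, with the stricter filter on dim probes and without Cerebellum En2KO 1 or 3. These calls rest on uncorrected P, and their percentage of false prediction lay between 0.28 and 0.56. The other Per2 probe, which lies towards the 5' end and is dimmer (5.65 against 9.27 in Cerebellum En2WT), gave -0.02.

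Nr1d2 was at 11.94, 12.47 and 12.30 in Cerebellum En2WT and at 12.30, 13.41 and 12.79 in Cerebellum En2KO. The groups overlapped, and the difference of 0.60 ± 0.30 had an adjusted p of 0.623; it was 0.31 without Cerebellum En2KO 2. Its paralog Nr1d1 had a difference of -0.21 ± 0.27. Tef differed by 0.37 ± 0.21, with En2KO above En2WT in 3 of 3 slides. Dbp differed by -0.11 ± 0.21, Arntl by -0.20 ± 0.24 and Clock by 0.20 ± 0.25. The 7 tested choroid plexus genes all had higher means in Cerebellum En2KO, with a mean deviation from the region mean of -0.32 to -0.15 on En2WT and 0.11 to 0.29 on En2KO arrays; none passed the test, and their part in the Per2 and Nr1d2 differences was not tested. Clock is the only member on chromosome 5, the chromosome of En2, with its probes 48.14 Mb from the En2 probe.

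Per1, Per3 and Bhlhe41 could not be resolved in the cerebellum, because the En2WT arrays differed among themselves by more than 1 log2 unit. Bhlhe41 was at 8.52, 8.03 and 5.77 in Cerebellum En2WT, a span wider than that of all 3 En2KO arrays (6.83, 7.52 and 7.22). Per3 was at 6.95, 5.49 and 4.57 in En2WT and 5.04, 6.62 and 5.43 in En2KO. Per1 was at 11.90, 11.996 and 10.65 in En2WT and 11.48, 12.18 and 11.85 in En2KO. In each case Cerebellum En2WT 3 was the lowest array of the region. Without it, the En2KO minus En2WT difference went from -0.25 to -1.09 for Bhlhe41 (limma adjusted p = 0.132), from 0.03 to -0.52 for Per3 and from 0.32 to -0.11 for Per1. Bhlhe41 was then called lower by the rank product with an uncorrected P of 0.00467 and a percentage of false prediction of 0.247.

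**Figure D2:**
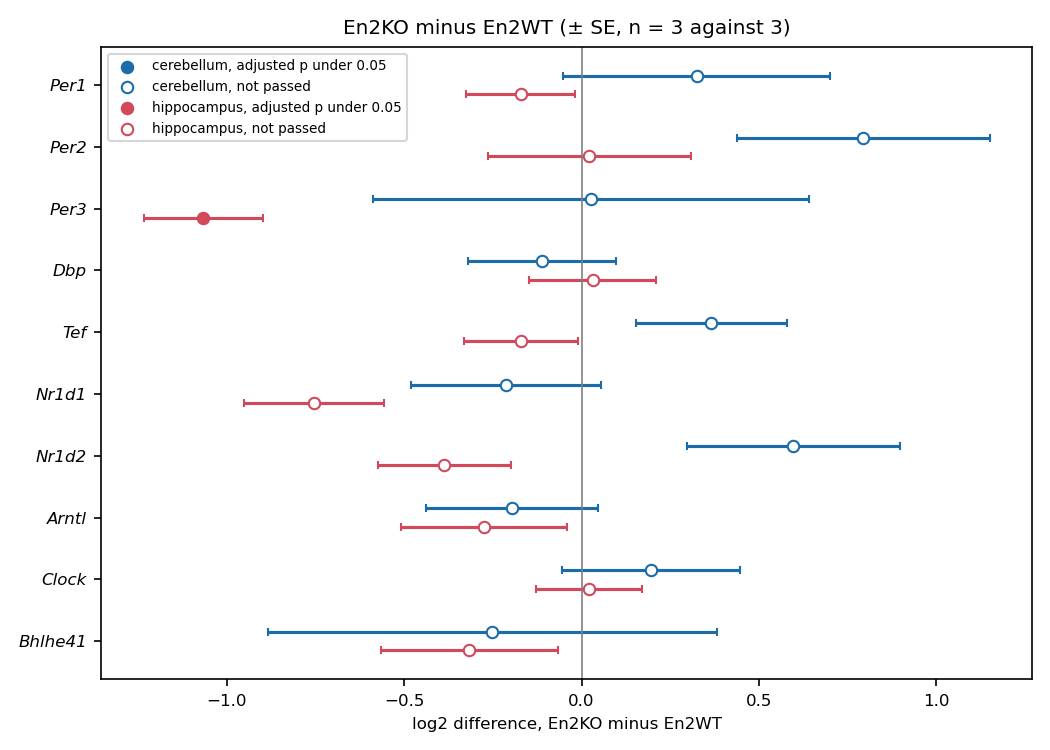
Difference En2KO minus En2WT in log2 units (horizontal axis) with its SE for the 10 members in the cerebellum (blue) and the hippocampus (red), 3 arrays against 3; filled points had a limma adjusted p under 0.05. Per3 in the hippocampus, at -1.07, is the only filled point, and the widest errors are those of Per3 and Bhlhe41 in the cerebellum.

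Whether the genotype difference itself differed between the regions was tested in a model over the 12 arrays. No member passed (0 of 10, against 0.116% of 14691 genes). The largest values of the cerebellum difference minus the hippocampus difference were 1.09 ± 0.71 (SE) for Per3, 0.98 ± 0.37 for Nr1d2 and 0.77 ± 0.49 for Per2. Nr1d2 had an unadjusted limma p of 0.0199 and an adjusted p of 0.356, and was the only member under 0.05 before adjustment, where 11.9% of all genes were. The Per3 difference in the hippocampus is therefore not shown to be particular to that region.

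Between the regions, 2 of the 10 members passed the test, each in 1 genotype. Nr1d2 rose in cerebellum over hippocampus in En2KO, and Tef fell in En2WT. These were 1 of 10 members higher in En2KO, where 11.6% of the 14691 genes were called higher, and 1 of 10 lower in En2WT, where 14.8% were called lower. Taking both directions, 1 of 10 members was called in each genotype, against 31.0% of genes in En2WT and 25.9% in En2KO, so the members' shares were below the background.

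In En2KO, Nr1d2 was at 12.30, 13.41 and 12.79 in cerebellum and 11.53, 11.77 and 11.71 in hippocampus. Every cerebellum array was above every hippocampus array. The difference was 1.16 ± 0.26 (SE), or 2.24-fold, with a limma adjusted p of 0.0057, and it passed under each of the 19 alternatives that gave a value. In En2WT the Nr1d2 difference was 0.18 ± 0.26. Nr1d1 was also higher in the cerebellum of En2KO mice on all arrays, by 0.60 ± 0.24 with an adjusted p of 0.0867, and passed without Cerebellum En2WT 3 (adjusted p = 0.0368), an array that enters only through the shared estimate of the spread. The other, dimmer Nr1d1 probes gave 0.20 and -0.08, so this too was seen by the brightest probe only.

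In En2WT, Tef was at 12.94, 13.52 and 13.34 in cerebellum and 13.92, 13.66 and 13.76 in hippocampus. The arrays did not overlap and the difference was -0.52 ± 0.18, with a limma adjusted p of 0.0454. The call was lost under most of the 19 alternatives and held under 5. The adjusted p was 0.056 with the slide as a block, 0.0767 with scaling to the 75th percentile and 0.281 with the mean of all probes, and leaving out single arrays took it from 0.0317 to 0.177. Of its other probes, 2 gave -0.70 and -0.83 and the third, annotated to a different transcript and nearest the 5' end, gave 0.37. In En2KO the Tef difference was 0.02 ± 0.18. The first 2 of its other probes gave 0.08 and -0.015 there. The third gave 1.05, with a limma adjusted p of 0.0515 when each probe was tested on its own.

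Per2 was lower in the cerebellum than in the hippocampus of En2WT mice on all arrays, by -0.75 ± 0.35 with an adjusted p of 0.122. It passed with the slide as a block (adjusted p = 0.0296) and without Cerebellum En2KO 2 (0.0416), an array of the other genotype. The other, dimmer Per2 probe gave -0.03. In En2KO the Per2 difference was 0.02 ± 0.35. Bhlhe41 differed by 0.53 ± 0.54 in En2WT, and by 1.37 with an adjusted p of 0.00407 once Cerebellum En2WT 3 was left out. Dbp was higher in the cerebellum of En2WT mice on all arrays, by 0.36 ± 0.19 (adjusted p = 0.164). Per1, Per3, Arntl and Clock had limma adjusted p of 0.385 or more in both genotypes.

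Rora, a ROR activator that acts on the same RORE motifs as Nr1d1 and Nr1d2, showed the widest regional difference among the 13 of 15 further clock genes that were tested in both regions. In En2WT 5 of the 13 rose and 1 fell in cerebellum over hippocampus, and in En2KO 2 rose. Over all genes, 31.0% were called in either direction in En2WT and 25.9% in En2KO. Rora was at 13.03 ± 0.08 (SD, n = 3) in cerebellum and 10.49 ± 0.07 in hippocampus of En2WT mice, a difference of 2.54 ± 0.23 (SE), and differed by 1.48 ± 0.23 in En2KO. Rorb, its paralog, had the opposite sign, falling by -1.26 ± 0.26 in En2WT (limma adjusted p = 0.00262), with -0.65 ± 0.26 in En2KO (adjusted p = 0.0845). Timeless rose in both genotypes, by 1.14 and 0.91. Cry1, an inhibitor of the Arntl and Clock dimer, Nfil3, the D-box repressor, and Ciart, a repressor of the dimer, rose in En2WT by 1.01, 0.85 and 0.70. Their differences in En2KO were 0.99 (adjusted p = 0.0576), 0.24 and 0.06. Fbxl21 and Btrc, parts of ubiquitin ligases, lay just outside the threshold in En2WT with adjusted p of 0.0504 and 0.0505.

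None of these further clock genes differed by genotype past the threshold, in 13 tested in the cerebellum and 14 in the hippocampus. The median over these genes in the cerebellum was -0.03, beside -0.03 for all genes, and in the hippocampus it was 0.20, beside 0.05. The largest were Rorb in the cerebellum, at 5.77 ± 0.50 (SD, n = 3) in En2WT and 6.75 ± 0.15 in En2KO with a difference of 0.98 ± 0.27 (SE) and a limma adjusted p of 0.258, and Npas2, a paralog of Clock, in the hippocampus. Npas2 was at 7.24, 7.09 and 6.87 in Hippocampus En2WT and 5.57, 6.55 and 6.38 in Hippocampus En2KO, a difference of -0.90 ± 0.27 with an adjusted p of 0.149. In the cerebellum Npas2 was well above background on 3 of 6 arrays and was not tested, and Arntl2 was tested in neither region.

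**Figure D3:**
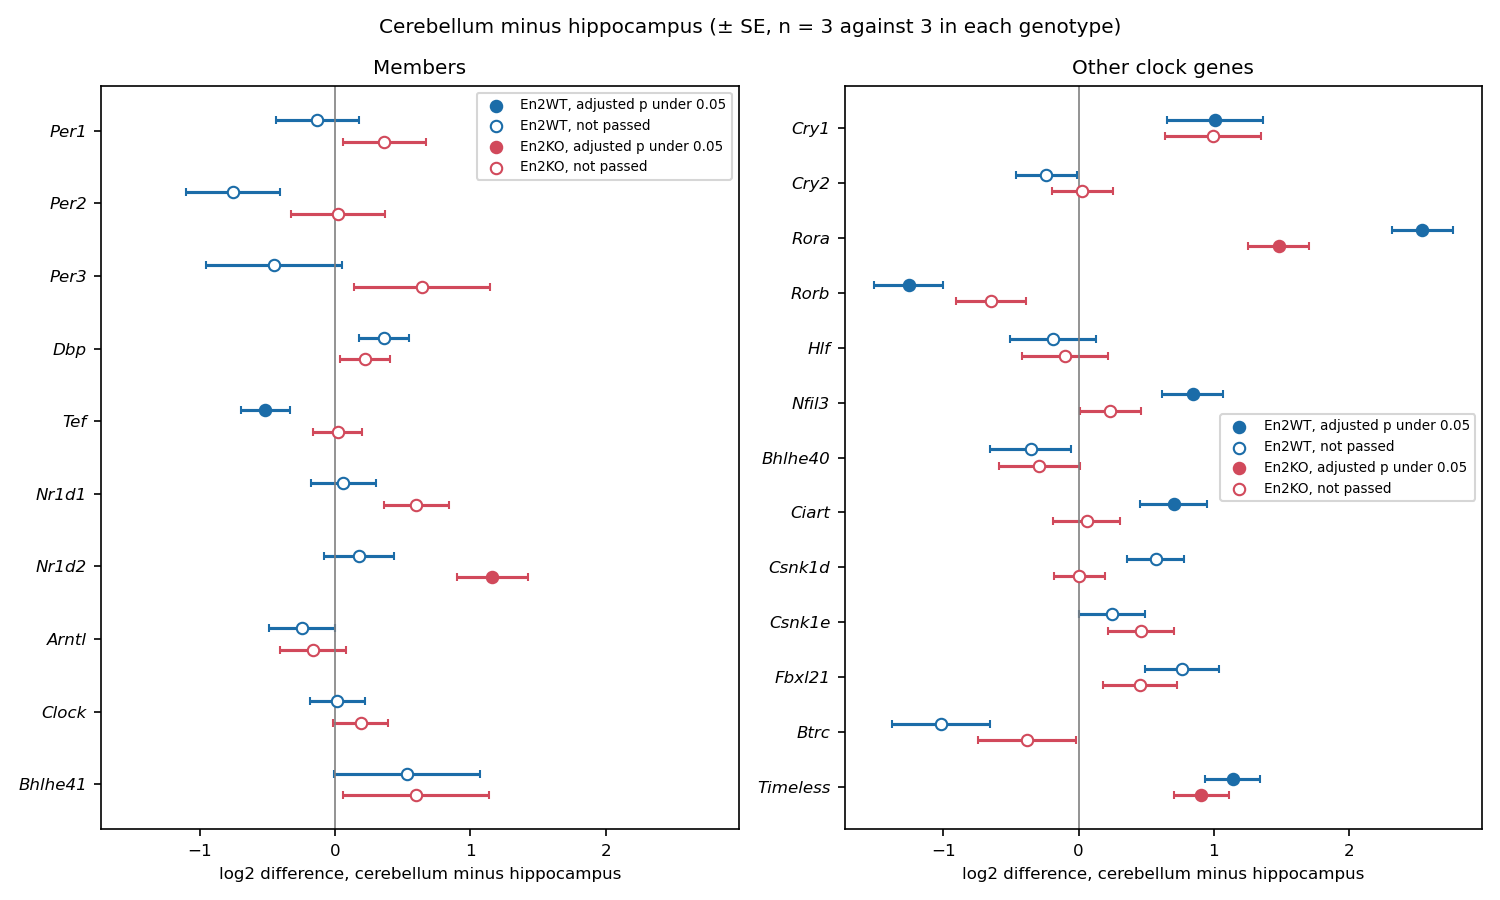
Difference cerebellum minus hippocampus in log2 units (horizontal axis) with its SE in En2WT (blue) and En2KO (red), for the 10 members (left) and the 13 further clock genes tested in both regions (right); filled points had a limma adjusted p under 0.05. The members stay between -0.75 and 1.16, while Rora reaches 2.54 in En2WT and 1.48 in En2KO.

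Single arrays differed in how the members stood to each other. The spread within groups, pooled over the 4 groups, was 0.79 log2 units for Bhlhe41 and 0.74 for Per3, above the medians of 0.36 and 0.40 for genes of like level. Per2 at 0.49 and Per1 at 0.42 also exceeded the medians for their levels, which were 0.29 and 0.26, and Nr1d2 was at 0.34 against 0.25. Dbp at 0.20 and Tef at 0.18 were below theirs, at 0.21 and 0.22. Clock at 0.23, Nr1d1 at 0.30 and Arntl at 0.31 were near the medians of 0.26, 0.31 and 0.28. Much of this rested on Cerebellum En2WT 3, as a recomputation chosen after seeing the data showed. Without that array the spread of Bhlhe41 was 0.35 and that of Per1 0.20, against like-level medians of 0.33 and 0.24, and that of Clock was 0.09. Per3 at 0.60, Per2 at 0.52 and Nr1d2 at 0.36 stayed above their medians of 0.38, 0.26 and 0.23. Within the hippocampus alone, Per2 at 0.42 exceeded its median of 0.25, while Per1 at 0.09 and Per3 at 0.14 were below theirs of 0.23 and 0.35.

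Cerebellum En2WT 3 was the lowest of the 6 cerebellum arrays for Per1, Per2, Per3 and Bhlhe41, by -1.03, -0.59, -1.11 and -1.54 from the region mean. The same array was the highest of the region for Arntl, Clock and Dbp, by 0.29, 0.40 and 0.37. Among the further clock genes it was also the highest for Nfil3, Ciart, Timeless, Csnk1d and Fbxl21, and it was the lowest for Csnk1e, Btrc and Hlf, another PAR bZIP gene, at 11.57. The Period genes and Bhlhe41 were thus low where Arntl, Clock and Dbp were high. This array had the lowest signal over background. It also stood apart from its group over the genes tested in both regions. Its correlation was 0.969 and 0.976 with Cerebellum En2WT 1 and 2, which had 0.991 with each other. With Cerebellum En2KO 1, 2 and 3 it was 0.983, 0.968 and 0.980. The listed cerebellum genes had their highest mean deviation of the region there, at 0.34. The part of these traits in the clock values was not tested.

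Cerebellum En2KO 2 was the highest of its region for Per1, Per2 and Nr1d2, by 0.51, 1.26 and 0.87, and second to Cerebellum En2WT 1 for Per3. Cry1, Cry2 and Hlf were also highest there, by 1.04, 0.40 and 0.60. Of the 10 members, 8 were above their region median on this array. In contrast, Cerebellum En2KO 1 had 1 of 10 above the median and the lowest Arntl and Nr1d1 of the region, at 9.93 and 9.25. The En2KO arrays of the cerebellum thus ranged from nearly all members low to nearly all high.

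In the hippocampus the arrays were closer together, with deviations of the members from -0.72 to 0.69. Hippocampus En2WT 2 had 9 of 10 members above their region median and Hippocampus En2WT 1 had 7, with the highest Per3, Nr1d1, Arntl, Bhlhe41 and Tef of the region. Hippocampus En2KO 1 had 1 of 10 above, and it was the lowest for Arntl, Dbp and Nr1d2 and, among the further clock genes, for Npas2, Bhlhe40 and Btrc. Hippocampus En2KO 3 was the lowest for Per1, Per3, Tef and Nr1d1. The En2WT counts were 7, 9 and 5 and the En2KO counts 1, 5 and 3, and En2WT 3 and En2KO 2 had the same count.

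**Figure D4:**
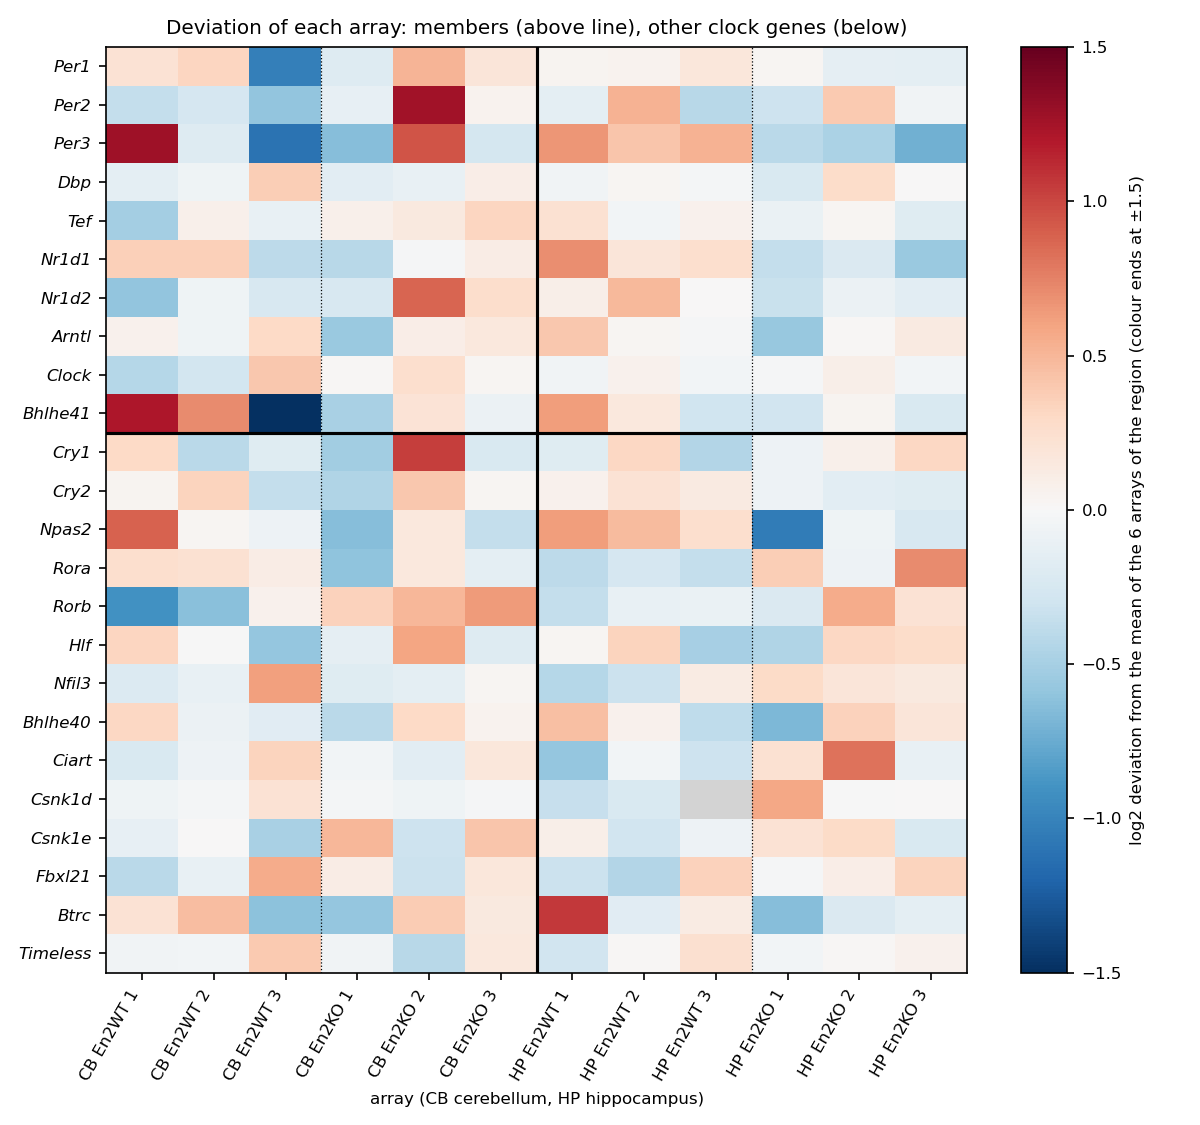
Deviation of each array (columns; CB cerebellum, HP hippocampus) from the mean of the 6 arrays of its region, in log2 units by colour, for the 10 members above the line and 14 further clock genes below; grey marks a flagged spot with no value. Cerebellum En2WT 3 is blue for Per1, Per2, Per3 and Bhlhe41 and red for Arntl, Clock and Dbp, while Cerebellum En2KO 2 is red for Per1, Per2, Per3, Nr1d2 and Cry1.

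Members that moved together over the arrays were described by the correlation of their deviations from the 4 group means, over 12 arrays that share the normalization and with no test. The pair Per2 and Nr1d2 had r = 0.85 (rho = 0.80) and kept 0.72 without Cerebellum En2WT 3 and Cerebellum En2KO 2. For both genes the array of replicate 2, which is also slide 2, was the highest in every group. The part of the slide in this correlation was not tested. Nr1d1 and Bhlhe41 had r = 0.86 (rho = 0.86) and 0.71 without both arrays. Other pairs rested on Cerebellum En2WT 3. Per1 and Bhlhe41 had r = 0.87 with this array and 0.27 over the 11 arrays without it, and Clock and Bhlhe41 had -0.81 and 0.23. Per1 and Per3 had 0.78 with it, 0.59 without it and 0.05 without Cerebellum En2KO 2 as well.

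Dbp, the output gene with the brightest probe, was compared array by array: its deviations were set beside those of 14148 genes. Outside the clock lists, the highest correlations over 12 arrays were those of Eif1ad (r = 0.98), Ppp6r3 (0.96), Gcnt2 (0.96), Oaf (0.95) and Nck1 (0.94), and the lowest those of Slc39a12 (-0.95), Syngr2 (-0.95), Pllp (-0.95), Plin1 (-0.94) and Stk11ip (-0.94). These are the extremes of many genes over few arrays. Within the lists, Rorb had r = 0.96, Ciart 0.74, Clock 0.71 and Arntl 0.58, while Per1 had -0.65, Bhlhe41 -0.57 and Tef 0.39. Without Cerebellum En2WT 3, Eif1ad had 0.95, Rorb 0.93, Ciart 0.67, Arntl 0.57 and Tef 0.39 over 11 arrays. Clock at 0.25, Per1 at -0.10 and Bhlhe41 at 0.20 did not keep their values, so these correlations with Dbp rested on that array and the sign for Bhlhe41 turned.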

How the data were processed

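The authors hybridised RNA to single-colour Agilent arrays and extracted spot intensities with Feature Extraction 10.7.3.1 (probe positions on mm9). The deposited processed intensities, background-corrected by that software, were used here, because the deposited log2 table of the authors had been filtered and quantile normalized for each region separately; it served as an alternative for genotype. Outlier-flagged spots were left out, log2 intensities were quantile normalized over 12 arrays and spots of a probe were averaged. A gene was tested in a region where its brightest probe exceeded background well on each of the 3 arrays of at least 1 genotype. Genotype was tested by limma 3.58.1 (R 4.3.3) on the 6 arrays of a region, regions and their interaction on 12 arrays with 4 group means, with Benjamini-Hochberg adjustment over all genes. The rank product of the authors' methods was rebuilt (9 ratios, 100 permutations, limits on the uncorrected P of 0.01 in cerebellum and 0.005 in hippocampus). Scripts were tested on simulated data. Each sample is labelled as a replicate, and the limma p-values measure the spread between these samples. The rank product P instead compares the ranks of a gene with those after values were shuffled among genes within each array. All members, every listed clock gene, En2 and the genes most and least like Dbp were named by rule. Some listed genes are not reported here. The members and lists were chosen with earlier results of these data known. Alternatives were scaling, background correction, filter, probe choice, block and leaving out arrays.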

Additional observations from a re-analysis of the deposited data

How the results depend on the processing

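Each member's difference was recomputed under the alternatives: of 900 values, 871 stayed on the same side of the threshold, 25 lost a call, 4 gained one and 0 reversed, and 56 uncalled differences changed sign. Most of the 871 had no call to lose. Of the called differences, Per3 in the hippocampus passed under 5 of 16 alternatives. Between the regions, Tef in En2WT passed under 5 of 19 and Nr1d2 in En2KO under 19 of 19. In the cerebellum, limma called 0 members by genotype under every alternative run, and the rank product called 1 in place of 0 with normexp, the authors' values and the filter on every array (Per2 in each) and 0 to 1 with an array left out. In the hippocampus, limma called 0 in place of 1 (Per3) with the slide as replicate block, in the 12-array model (adjusted p = 0.314), with normexp, in the authors' values, with no filter (adjusted p = 0.0694), and with any array left out (0 to 0). The rank product there called 0 with normexp, in the authors' values and at a percentage of false prediction under 0.05, and 0 to 1 with an array left out (0 without Hippocampus En2WT 1 or Hippocampus En2KO 3). For cerebellum against hippocampus in En2WT, limma called 0 in place of 1 with the 75th percentile, the mean of all probes and every probe on its own, and 0 to 2 with an array left out. In En2KO it called 2 in place of 1 at an adjusted p under 0.1, and 1 to 2 with an array left out. With the replicate block it called 1 member in En2WT, Per2 in place of Tef, and 1 in En2KO. For the difference of the genotype effects it called 0 throughout.

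The replicate number equals the slide on all 12 arrays. Deviations of same-numbered En2WT and En2KO arrays correlated between -0.20 and 0.09 in the hippocampus and between -0.07 and 0.11 in the cerebellum. Over all pairs of groups, same-numbered arrays correlated between -0.23 and 0.45. With 3 arrays a group, these few values cannot tell whether the numbers pair the animals. Region contrasts were not run on the authors' values or with quantiles taken within each region, which remove the difference. The size of the Per3 difference in the hippocampus moved with the background correction, and 3 arrays a group limit the precision.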

Other observations

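Genes that share inputs with the clock, listed beside the members, were not called by genotype in either region. Of 9 tested glucocorticoid-responsive genes, 8 had higher means in Cerebellum En2KO and 7 in Hippocampus En2KO, with medians of 0.51 and 0.30 beside -0.03 and 0.05 for all genes, and none passed the limma test. Sgk1, a kinase gene induced by glucocorticoids, differed by 0.92 ± 0.27 (SE) in the cerebellum (adjusted p = 0.298), and Pdk4, a regulator of pyruvate use, by 0.78 ± 0.25 in the cerebellum and 1.11 ± 0.24 in the hippocampus (adjusted p = 0.352 and 0.0784). Array by array, Fkbp5, another glucocorticoid target, was lowest in the cerebellum on Cerebellum En2WT 3, at 8.62, and highest on Cerebellum En2KO 2, at 10.80. These are the arrays with the lowest and the highest Per1 and Per2 of the region. The mean deviation of the 9 genes was -0.53 and 0.41 on these arrays and between -0.14 and 0.28 on the other cerebellum arrays. Sgk1, Errfi1 and Pdk4 had the same lowest and highest array as Fkbp5. Of the others, Mt2 was lowest on Cerebellum En2KO 2 and Tsc22d3 on Cerebellum En2KO 3. Mt1, Mt2, Cdkn1a and Sult1a1 were highest on Cerebellum En2KO 3. A link of these genes to the Per levels was not tested.

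Of 12 immediate early genes, which report recent neuronal activity, 8 fell in cerebellum against hippocampus in each genotype, among them Egr2, Npas4, Nr4a1 and Arc, with medians of -1.54 in En2WT and -1.54 in En2KO; Ier2 rose in both and Dusp1 in En2WT. Between the regions, 31.0% of all genes were called in either direction in En2WT and 25.9% in En2KO. None of the 12 passed by genotype. The largest value in the hippocampus was 1.11 ± 0.41 for Egr2 (limma adjusted p = 0.205). In the cerebellum it was -1.05 ± 0.28 for Arc (limma adjusted p = 0.246). Among 7 clock-controlled genes, Tspan4 rose in the cerebellum over the hippocampus in both genotypes, by 2.86 and 1.63, Hif3a rose in En2WT by 0.81 and Lonrf3 fell by -1.15 in En2KO. By genotype none passed, with Hif3a at 1.13 ± 0.25 in the hippocampus (adjusted p = 0.085) the nearest.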
